A study of Mus musculus with 14 samples.

Results

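A set of 7 genes tied to fat pad expansion, of the 23282 genes in the count table, was followed in the epididymal fat of mice fed a Western diet (WD) or a normal diet. They were taken by gene symbol and comprise Mest, Sfrp5, Sfrp1, Bmp3, Npr3, Cav1 and Cav2. The 14 libraries, made with the QuantSeq 3′ mRNA kit from total RNA, came from wild-type male C57BL/6J mice that were 4 weeks old at the start, and each library is a separate animal. The labels give 3 groups: 4 mice on the normal diet in batch 1, 5 mice on the WD in batch 1 and 5 mice on the normal diet in batch 2, all fed for 20 weeks. Every WD mouse belongs to batch 1. Only the batch 1 controls therefore share a batch with the WD group, and against the batch 2 controls diet and batch cannot be told apart.

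White fat expands when existing adipocytes store more triglyceride and when progenitors form new ones. Mest encodes a protein of the endoplasmic reticulum related to hydrolases. It is imprinted, so that the paternal copy is the one expressed, and it is known in mouse fat as a marker of rapid expansion. Sfrp5 and Sfrp1 encode secreted proteins that bind Wnt ligands, and Wnt signals restrain the formation of adipocytes. Bmp3 encodes a secreted member of the TGF-β family, Npr3 the receptor that removes natriuretic peptides from the tissue, and Cav1 and Cav2 the coat proteins of caveolae, the flask-shaped pits that cover much of the adipocyte surface.

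Positions were read from the deposited table, which is on mm10. Mest lies on the plus strand of chromosome 6 from 30733506 to 30748466, and Cav2 and Cav1 are neighbours on the same strand of the same chromosome, from 17281185 to 17289130 and from 17306335 to 17341328, with 17204 bases between them. Sfrp5 lies on the minus strand of chromosome 19 from 42197971 to 42202252, and Npr3 on the minus strand of chromosome 15 from 11839896 to 11907371. Sfrp1 lies on the plus strand of chromosome 8 from 23411502 to 23449632, and Bmp3 on the plus strand of chromosome 5 from 98854439 to 98880960. All 7 are protein-coding. In the GENCODE annotation of GRCm38 no other gene overlaps Sfrp5, Sfrp1 or Bmp3. The antisense transcript Gm15581 overlaps both Cav1 and Cav2, and the noncoding gene Gm5144, at no more than 18.7 CPM (counts per 1000000) in any library, overlaps Npr3. Mest overlaps the antisense transcript Gm44296, the microRNA gene Mir335 and the noncoding genes Gm27522 and Gm27568. It also overlaps Copg2, which encodes a coat protein of Golgi vesicles and lies on the minus strand from 30747554 to 30896794. Both genes end inside the 913 bases that they share, where a 3′ method places its reads.

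RefSeq promoter windows on GRCm38.p6 were available for 5 of the 7 genes, and Sfrp1 and Bmp3 were not among them. The windows directly before a start of Mest, Sfrp5, Cav1 and Cav2 are shown because these genes form the groups described below: an imprinted gene, a Wnt antagonist and the neighbouring caveolin genes. Mest had 3 such windows and Cav1 2, of which 1 each is shown, picked with their letters known. Each line gives 250 bases, 5′ to 3′ on the strand of the gene, with the GC box (GGGCGG on either strand, the letters bound by Sp1 family factors) in capitals.
Mest, chr6:30737800-30738049, plus strand: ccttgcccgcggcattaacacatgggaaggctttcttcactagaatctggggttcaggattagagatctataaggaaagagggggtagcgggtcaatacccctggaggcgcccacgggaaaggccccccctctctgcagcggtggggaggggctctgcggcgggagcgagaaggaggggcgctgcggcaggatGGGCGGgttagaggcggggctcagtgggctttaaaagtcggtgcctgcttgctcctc
Sfrp5, chr19:42202253-42202502, minus strand: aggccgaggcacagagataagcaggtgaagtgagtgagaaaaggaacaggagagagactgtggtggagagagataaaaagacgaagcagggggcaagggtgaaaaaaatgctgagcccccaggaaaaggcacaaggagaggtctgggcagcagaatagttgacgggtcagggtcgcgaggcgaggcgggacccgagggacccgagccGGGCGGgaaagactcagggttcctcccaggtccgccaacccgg
Cav1, chr6:17306085-17306334, plus strand: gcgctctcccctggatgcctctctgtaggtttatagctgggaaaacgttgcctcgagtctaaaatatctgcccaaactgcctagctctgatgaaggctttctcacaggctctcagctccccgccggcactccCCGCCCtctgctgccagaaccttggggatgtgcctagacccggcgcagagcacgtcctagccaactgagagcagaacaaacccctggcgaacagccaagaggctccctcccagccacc
Cav2, chr6:17280935-17281184, plus strand: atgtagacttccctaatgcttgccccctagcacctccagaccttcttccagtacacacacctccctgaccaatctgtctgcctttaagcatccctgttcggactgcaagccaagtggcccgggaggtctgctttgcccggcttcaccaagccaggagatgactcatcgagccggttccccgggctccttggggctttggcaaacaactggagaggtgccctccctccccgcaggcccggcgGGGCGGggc
Each of the 4 windows held 1 GC box, which was also present in 32.7% of the 32851 promoter windows of the same length. The window of Mest held 14 CG dinucleotides, that of Sfrp5 13 and those of Cav1 and Cav2 10 each, against a median of 6 over all windows. Cav2 also held a CCAAT box (CCAAT, in 33.8% of all windows), and Cav1 a TATA box (TATAAA, in 12.4% of all windows), both searched on either strand. No E-box (CACGTG, in 6.02% of all windows) was present in the 4 windows. Of the windows not shown, the second of Cav1 held 0 GC boxes and that of Npr3 held 0 GC boxes and 6 CG dinucleotides. The Mest window before 30733506, where the deposited table starts the gene, held 1 GC box and 7 CG dinucleotides.

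The libraries held 10278970 to 13712254 counts each. A floor of 3 counts corresponded to 0.219 to 0.292 CPM, and limits of this kind cover counting error only. Control replicate 1 of batch 1 stood apart, with 13.1% of its counts on 12 markers of the epididymis, the organ to which this fat is attached, against at most 0.00538% in any other library. Its adipocyte index, the mean log2(CPM + 1) of 12 adipocyte markers, was 7.55, while the other batch 1 controls reached 9.62 to 10.38, the WD mice 9.57 to 9.89 and the batch 2 controls 10.60 to 10.79. Control replicate 4 of batch 1 had 1392 CPM of 8 macrophage markers in sum, inside the range of the WD group (1220 to 1830 CPM), whereas the other batch 1 controls had 141 to 541 CPM and the batch 2 controls 215 to 506 CPM. The same library held counts on 7999 genes, the fewest of the 14 libraries, against 10903 to 13780 genes in the others. The 12 adipocyte markers had counts in every group, and their summed level spanned 6468 to 50872 CPM among batch 1 controls, 26468.5 to 39158.5 CPM among WD mice and 56293 to 68910 CPM among batch 2 controls.

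The 7 genes were present at very different levels. CPM values were normalized by the trimmed mean of M values (TMM), and since QuantSeq yields reads only near the end of a transcript, CPM was not divided by gene length. Averaged over the 14 libraries, Npr3 was at 1349 ± 438 CPM (SD), Cav1 at 1050 ± 389 CPM, Cav2 at 564 ± 214 CPM and Mest at 393 ± 192 CPM. Sfrp5 was at 366 ± 265 CPM, Bmp3 at 62.3 ± 36.7 CPM and Sfrp1 at 14.9 ± 13.4 CPM. In this order the neighbours Npr3 and Cav1, Cav2 and Mest, and Mest and Sfrp5 differed by less than their SDs, and the other neighbours by more. Control replicate 1 had the lowest level of all 14 libraries for Mest, Sfrp5, Bmp3, Npr3, Cav1 and Cav2 and the highest for Sfrp1. Control replicate 4 had the highest level among the batch 1 controls for the same 6 genes, and no count of Sfrp1.

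**Figure D1:**
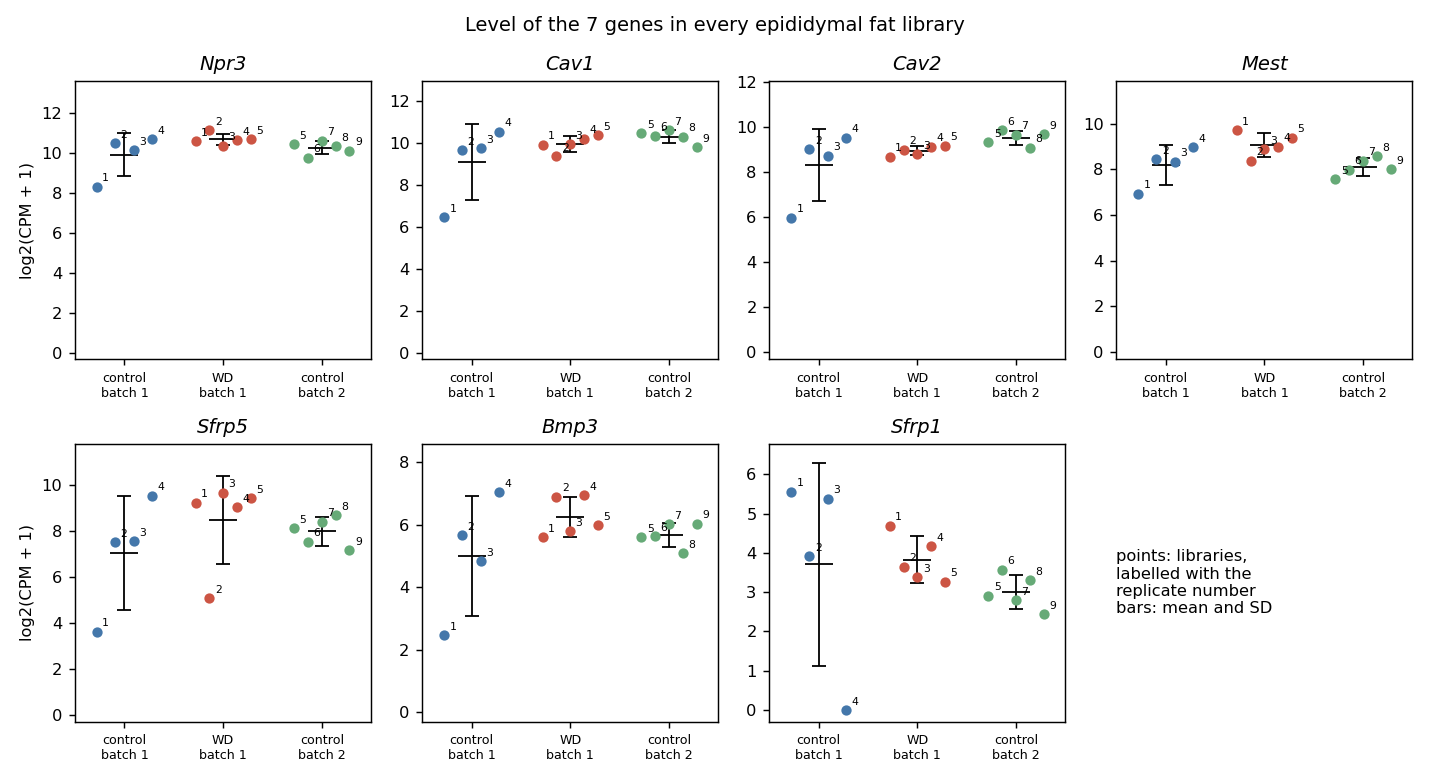
Level of the 7 genes in each of the 14 libraries, as log2(CPM + 1) on the vertical axis, by group. Points are libraries labelled with their replicate number, and bars give the mean and SD. Control replicate 1 of batch 1 is the lowest point for 6 genes, and WD replicate 2 lies at 5.08 for Sfrp5, apart from the other WD libraries at 9.04 to 9.67.

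Mest was higher on average in the WD group than in either control group, and its ranges overlapped with both. In the 5 WD libraries, replicates 1 to 5, Mest was at 842, 333, 466, 506 and 666 CPM. In the 4 batch 1 controls, replicates 1 to 4, it was at 120, 348, 319 and 501 CPM. In the 5 batch 2 controls, replicates 5 to 9, it was at 188, 251, 331, 379 and 254 CPM. Thus 3 of the 5 WD libraries exceeded every batch 1 control, and 4 of the 5 exceeded every batch 2 control. The WD mean was 562 ± 196 CPM (SD, n = 5), against 322 ± 156 CPM in the batch 1 controls (SD, n = 4) and 281 ± 74.8 CPM in the batch 2 controls (SD, n = 5). Against the batch 1 controls the log2 fold change was 0.82 (standard error, SE, of 0.40 and 95% confidence interval -0.05 to 1.70), with a false discovery rate (FDR), adjusted over all genes tested, of 1.00 by the quasi-likelihood method of edgeR. The unadjusted edgeR p was 0.0632, and log2(CPM + 1) compared by exact permutation, two-sided, had p = 0.111, where 5 libraries against 4 allow no p under 0.0159. With all 9 controls of both batches together the exact permutation p was 0.0110 for a difference of 0.94, a comparison in which diet and batch are mixed. Against the batch 2 controls the log2 fold change was 1.00 (SE 0.25, 95% confidence interval 0.47 to 1.54, edgeR FDR 0.0225). This call was lost, with an edgeR FDR of 0.0574 to 0.0762, when any 1 of WD replicate 1, WD replicate 5 and control replicates 5, 6 and 9 was left out. Between the control groups, batch 2 against batch 1, the log2 fold change of Mest was -0.20 (SE 0.36, edgeR FDR 0.982).

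The counts of Copg2, the gene that overlaps the end of Mest, followed those of Mest library by library. WD replicate 1 held 11963 counts of Mest and 10395 of Copg2, control replicate 1 held 1143 and 1233, and control replicate 5 held 2646 and 2455. The ratio of Copg2 to Mest counts was between 0.741 in WD replicate 2 and 1.08 in control replicate 1, with a median of 0.894 over the 14 libraries. Whether the authors counted by strand is not given in the sources used here. Without strand, reads of the shared 913 bases cannot be assigned to either gene, so every value of Mest is that of reads placed on Mest, Copg2 or both. Copg2, whose value is for this reason no separate result, had a log2 fold change of 0.70 against the batch 1 controls (SE 0.40, edgeR FDR 1.00) and of 0.94 against the batch 2 controls (SE 0.26, edgeR FDR 0.0387).

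**Figure D2:**
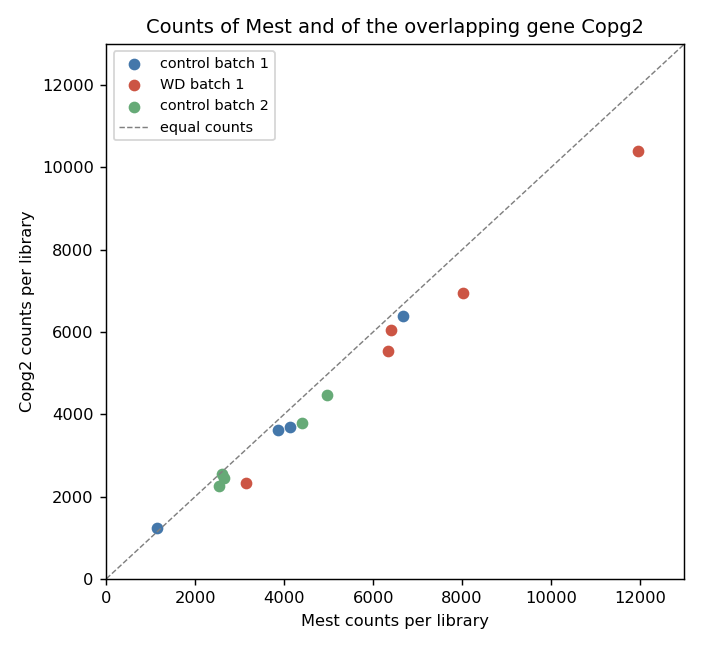
Counts of Copg2 (vertical axis) against counts of Mest (horizontal axis) in the 14 libraries, coloured by group, with a dashed line at equal counts. The points run along the line, from 1143 counts of Mest in control replicate 1 to 11963 in WD replicate 1, and only control replicate 1 holds more Copg2 than Mest.

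Sfrp5, which binds Wnt5a and other Wnt ligands outside the cell, varied far more between libraries than Mest. In the WD libraries, replicates 1 to 5, it was at 600, 32.8, 812, 525 and 684 CPM. In the batch 1 controls, replicates 1 to 4, it was at 11.3, 182, 187 and 740 CPM. In the batch 2 controls, replicates 5 to 9, it was at 275, 184, 336, 407 and 143 CPM. Of the WD libraries, 4 lay above every batch 2 control and the remaining one, replicate 2, lay under all of them, while only replicate 3 exceeded every batch 1 control. The highest and lowest libraries of a group differed 65.6-fold in the batch 1 controls, 24.8-fold in the WD group and 2.84-fold in the batch 2 controls. The log2 fold change was 0.96 against the batch 1 controls (SE 0.91, edgeR FDR 1.00), or 1.94-fold with an upper 95% confidence bound of 7.56 and a lower bound under 1. It was 0.98 against the batch 2 controls (SE 0.52, 95% confidence interval -0.11 to 2.08, edgeR FDR 0.359). Without WD replicate 2 the latter became 1.28 with an edgeR FDR of 0.00472, and without control replicate 4 the log2 fold change in batch 1 became 2.05 with an FDR of 0.479. The exact permutation test of log2(CPM + 1) in batch 1 gave p = 0.397.

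Sfrp1, the other secreted Wnt antagonist, was the lowest of the 7 genes. The WD libraries, replicates 1 to 5, had 24.9, 11.5, 9.38, 16.9 and 8.63 CPM. The batch 1 controls, replicates 1 to 3, had 46.1, 14.2 and 40.5 CPM, and replicate 4 had 0 counts, which allows up to 0.243 CPM. That limit covers counting error only, and replicate 4 held counts on the fewest genes of the 14 libraries, 7999. The batch 2 controls, replicates 5 to 9, had 6.53, 10.9, 5.95, 8.84 and 4.41 CPM. The WD group therefore lay inside the wide range of the batch 1 controls, and 3 of its 5 libraries lay above every batch 2 control. The fitted log2 fold change was -0.84 against the batch 1 controls (SE 1.12, edgeR FDR 1.00) and 0.96 against the batch 2 controls (SE 0.48, edgeR FDR 0.322). In batch 1 the direction depended on the scale, since the mean of log2(CPM + 1) was 3.83 in the WD group and 3.71 in the controls (exact permutation p = 0.905).

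Bmp3, a BMP that lacks the osteogenic activity of its relatives, was at 47.3, 117, 54.4, 122 and 61.9 CPM in WD replicates 1 to 5. It was at 4.53, 49.9, 27.6 and 130 CPM in the batch 1 controls, replicates 1 to 4, and at 47.1, 48.4, 63.8, 32.9 and 64.1 CPM in the batch 2 controls, replicates 5 to 9. Replicates 2 and 4 of the WD group exceeded every batch 2 control, and control replicate 4 exceeded every WD library. The log2 fold change was 0.64 against the batch 1 controls (SE 0.68, edgeR FDR 1.00) and 0.65 against the batch 2 controls (SE 0.30, edgeR FDR 0.259). Without control replicate 4, the value in batch 1 was 1.55 with an edgeR FDR of 0.412.

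Npr3, the clearance receptor that lowers the natriuretic peptide signal for lipolysis, was the most abundant of the 7 and, with a 1.72-fold span, varied less among the WD libraries than the other members except Cav2 (1.41-fold). It was at 1521, 2234, 1298, 1581 and 1615 CPM in WD replicates 1 to 5. It was at 316, 1427, 1116 and 1624 CPM in batch 1 controls 1 to 4, and at 1377, 858, 1543, 1289 and 1089 CPM in batch 2 controls 5 to 9. WD replicate 2, the lowest WD library for Mest, Sfrp5 and Cav1, was the highest of all 14 libraries for Npr3. The log2 fold change was 0.58 against the batch 1 controls (SE 0.44, edgeR FDR 1.00) and 0.42 against the batch 2 controls (SE 0.20, edgeR FDR 0.281).

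Cav1, the main structural protein of caveolae, was at 958, 656, 986, 1170 and 1321 CPM in WD replicates 1 to 5, inside the range of the batch 1 controls. Batch 1 controls 1 to 4 had 87.4, 805, 850 and 1474 CPM, and batch 2 controls 5 to 9 had 1397, 1287, 1563, 1256 and 893 CPM. Cav2, which enters caveolae together with Cav1, was at 407, 504, 441, 551 and 573 CPM in WD replicates 1 to 5. Batch 1 controls 1 to 4 had 61.5, 516, 417 and 726 CPM of Cav2, and batch 2 controls 5 to 9 had 636, 927, 799, 539 and 806 CPM. For Cav2, 3 of the 5 WD libraries lay under every batch 2 control, and for Cav1 1 did. Against the batch 2 controls the log2 fold change was -0.58 for Cav2 (SE 0.19, 95% confidence interval -0.98 to -0.18, edgeR FDR 0.0835) and -0.33 for Cav1 (SE 0.21, edgeR FDR 0.486). Cav2 passed the threshold with DESeq2 (FDR = 0.0294) and, in edgeR's test, without control replicate 8 (FDR = 0.0498). Against the batch 1 controls the signs were opposite, 0.23 for Cav2 (SE 0.50, edgeR FDR 1.00) and 0.37 for Cav1 (SE 0.56, edgeR FDR 1.00), and both turned negative without control replicate 1 (-0.13 and -0.01) or with all 14 libraries in a fit without a batch term (-0.28 and -0.07). The ratio of Cav1 to Cav2 CPM was 2.06 ± 0.43 in the WD group (SD, n = 5), 1.76 ± 0.32 in the batch 1 controls (SD, n = 4) and 1.80 ± 0.53 in the batch 2 controls (SD, n = 5), a difference smaller than the spread between libraries.

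Over the 7 genes, 0 of 7 had an FDR under 0.05 in edgeR's test of the WD group against the batch 1 controls, where 0% of the 12157 genes tested had one. At an unadjusted threshold of 0.05, 0 of the 7 passed (5.17% of all genes tested), and DESeq2 called 0 of the 7 (0.938% of all). All 7 passed the filter on low counts in each comparison. Of the 7 log2 fold changes 6 were positive, with a median of 0.58 against 0.03 over all genes tested. Without control replicate 1, the lowest library for those 6 genes, they were 0.56 for Mest and Sfrp5, 0.28 for Npr3 and 0.26 for Bmp3. In that fit Cav1 was at -0.01, Cav2 at -0.13 and Sfrp1 at -0.35, and the median over all genes was 0.13. The share of positive values over all genes was not counted in any comparison. Against the batch 2 controls 1 of the 7, Mest, had an FDR under 0.05, where 6.40% of the 12070 genes tested did, and DESeq2 called 2 of the 7, Mest and Cav2 (9.56% of all). Without adjustment 4 of the 7 passed 0.05, Mest, Cav2, Bmp3 and Npr3 (17.7% of all), 5 of the 7 log2 fold changes were positive, and their median was 0.65 against -0.00342 over all genes tested. Both comparisons use the same 5 WD libraries and are not independent. Batch 2 controls against batch 1 controls, a comparison without a difference in diet, gave 0 of 7 genes with an FDR under 0.05 (0% of 12106 genes tested), 0 of 7 with an unadjusted p under 0.05 (7.39% of all) and 0 of 7 with DESeq2 (0.917% of all). The largest values in that comparison were -1.82 for Sfrp1 (SE 1.14, edgeR FDR 0.832) and 0.79 for Cav2 (SE 0.51, edgeR FDR 0.839). The CPM ranges of the WD group and either control group overlapped for each of the 7 genes, where they did not for a share of all genes (3.83% of genes tested against the batch 1 controls, 8.89% against the batch 2 controls), and the control groups overlapped for each of the 7 as well (5.44% of all genes did not).

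**Figure D3:**
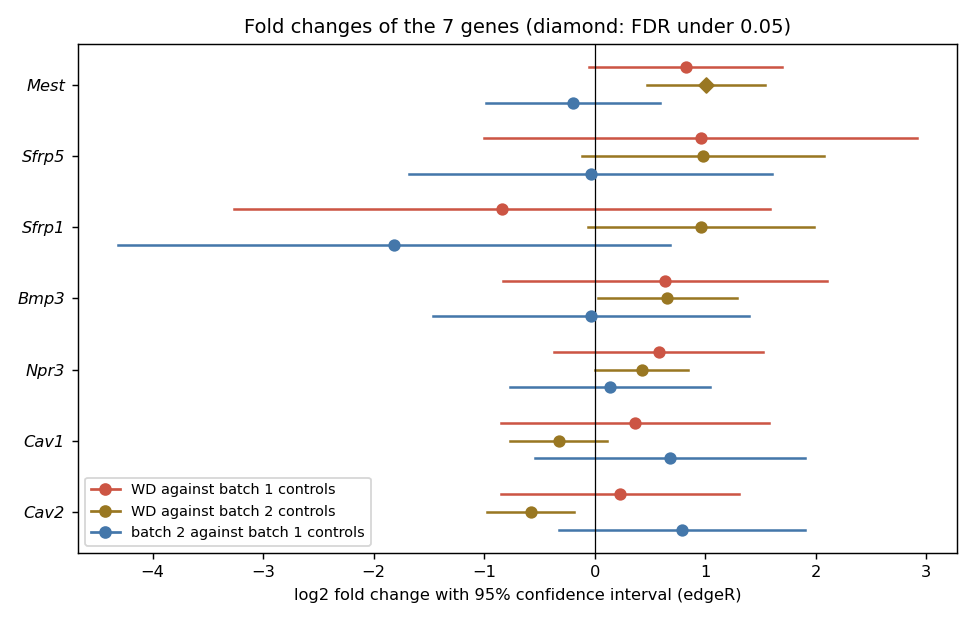
Log2 fold changes of the 7 genes with 95% confidence intervals from edgeR (horizontal axis) in the 3 comparisons. The diamond, at 1.00 for Mest against the batch 2 controls, marks the only value with an FDR under 0.05, and all intervals of the other 2 comparisons include 0.

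Of the 9 fits of batch 1 that left out a library, those without control replicate 1 or control replicate 4 gave the lowest and the highest log2 fold change of each of the 7 genes. Without control replicate 4 the log2 fold change was 2.05 for Sfrp5, 1.55 for Bmp3 and 1.08 for Mest. Without control replicate 1 it was 0.56 for Sfrp5, 0.26 for Bmp3 and 0.56 for Mest. Without both it was 1.53 for Sfrp5, 1.07 for Bmp3, 0.76 for Mest and 0.39 for Npr3, with an edgeR FDR of 0.471 or more for each of the 7. None of the 7 genes had an FDR under 0.05 in batch 1 in any of the 9 fits that left out a library.

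**Figure D4:**
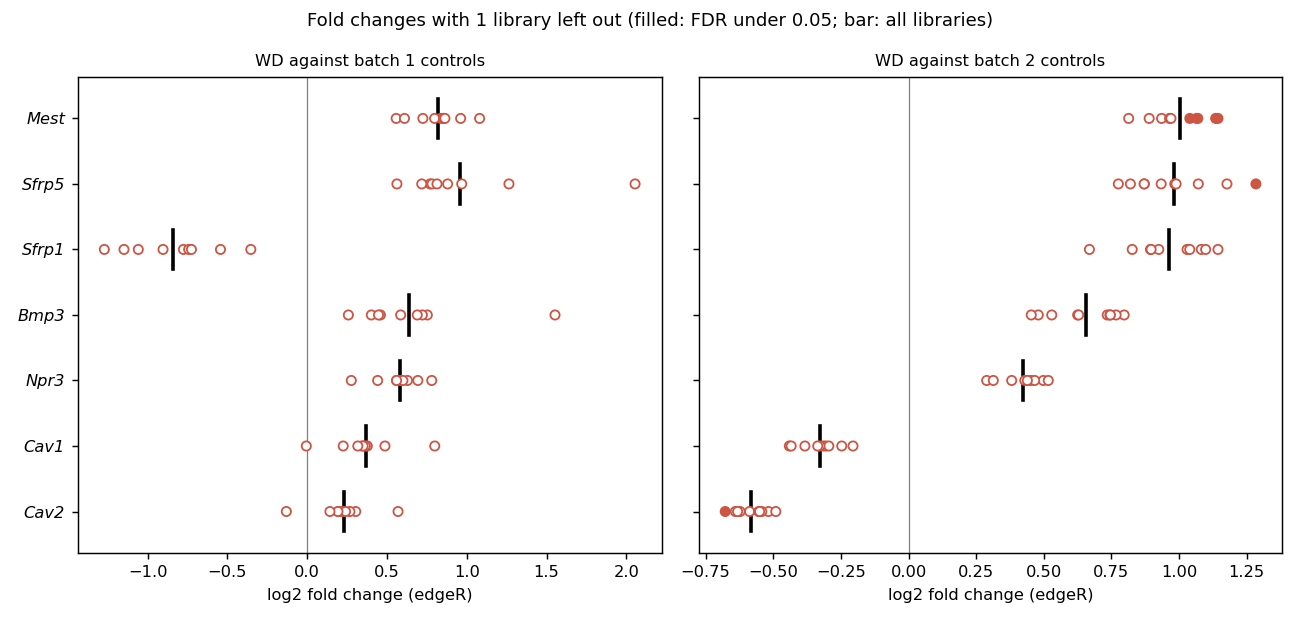
Log2 fold changes of the 7 genes (horizontal axis, edgeR) with 1 library left out, in WD against batch 1 controls (left, 9 fits) and against batch 2 controls (right, 10 fits). Each point is a fit, filled where the FDR was under 0.05, and the bar is the fit with all libraries. On the left no point is filled, and Sfrp5 reaches 2.05 without control replicate 4. On the right Mest runs from 0.81 to 1.14.

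Fat is a mixture of cells, and in bulk RNA fewer cells of a type and less RNA per cell cannot be told apart. The adipocyte index was 9.77 ± 0.14 in the WD group (SD, n = 5) and 10.72 ± 0.08 in the batch 2 controls (SD, n = 5), without overlap (exact permutation p = 0.00794, the smallest that 5 against 5 allow). In the batch 1 controls it was 9.44 ± 1.31 (SD, n = 4). The level of each gene was therefore also taken relative to the adipocyte markers, as its log2(CPM + 1) minus the index. On this scale Mest was at -0.70 ± 0.46 in the WD group, -2.63 ± 0.45 in the batch 2 controls and -1.28 ± 0.74 in the batch 1 controls. Among the batch 1 controls, replicates 1 and 4 were at -0.62 and -0.65 and replicates 2 and 3 at -1.93 and -1.90, so that the index brought replicate 1, the lowest library for Mest in CPM, up to the level of the WD group (-1.40 to -0.17). The WD group exceeded the batch 2 controls without overlap for 4 of the 7 genes on this scale, Mest, Sfrp1, Bmp3 and Npr3 (exact permutation p = 0.00794 each). The index itself was lower in the WD group, 28.3% of all genes tested did not overlap on this scale between the same groups, and the 4 genes are to be read against that share. The difference from the batch 2 controls was 1.93 for Mest, 1.78 for Sfrp1, 1.53 for Bmp3, 1.38 for Npr3, 1.47 for Sfrp5, 0.61 for Cav1 and 0.39 for Cav2, where the index differed by -0.96. The ranges of Sfrp5, Cav1 and Cav2 overlapped, with exact permutation p of 0.151, 0.0317 and 0.0635. Against the batch 1 controls 0 of the 7 genes separated on this scale (1.51% of all genes tested), with exact permutation p between 0.175 and 0.810. The summed macrophage markers were also higher in the WD group than in every batch 2 control, and their part in these values was not tested.

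**Figure D5:**
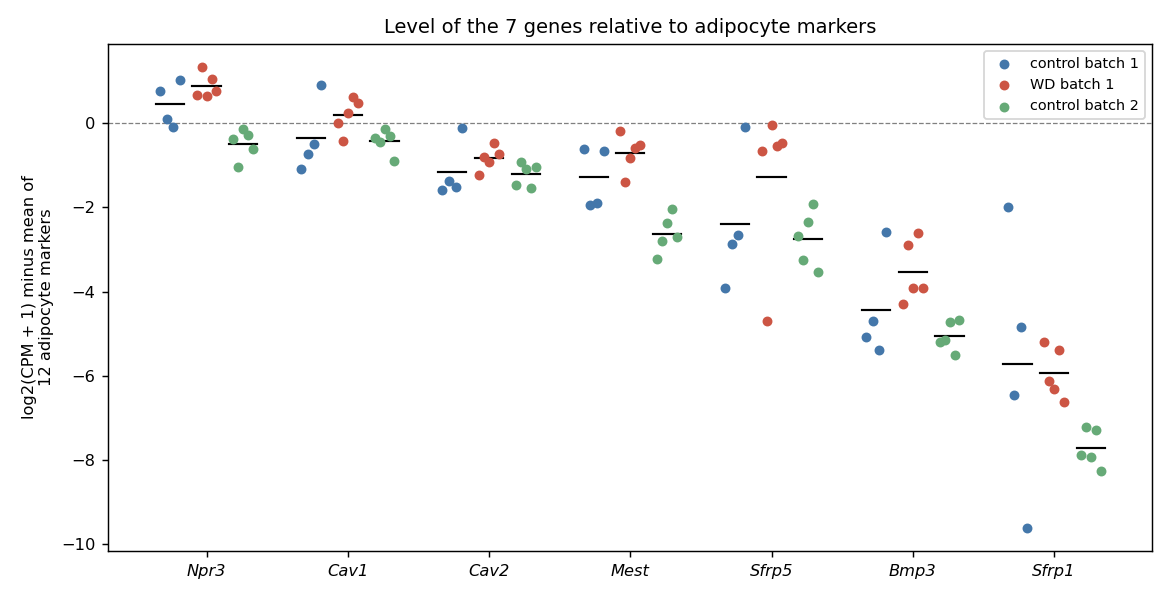
Level of the 7 genes minus the mean of 12 adipocyte markers, in log2 units (vertical axis), by library and group, with bars at the group means. Mest, Npr3, Bmp3 and Sfrp1 separate the WD group from the batch 2 controls, and the batch 1 controls overlap with the WD group for every gene.

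Across the 14 libraries Cav1 and Cav2 varied together, with a Pearson r of 0.94 and a Spearman rho of 0.68. Without the 2 libraries farthest from the median, control replicate 1 and WD replicate 2, r was 0.56. Mest and Sfrp5 had r = 0.76 and rho = 0.76, and r = 0.57 without control replicate 1 and WD replicate 1. Sfrp1 ran against Bmp3 (r = -0.63) and Cav2 (r = -0.61), and without control replicates 1 and 4 these were -0.25 and -0.69. Of the other pairs, Bmp3 and Npr3 had the highest r (0.89), which was 0.61 without control replicates 1 and 4. These values describe libraries that share diet, batch and, in control replicate 1, epididymis RNA.

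Among 13152 other genes, the 2 with the highest r over the 14 libraries were named for each gene. For Mest they were Copg2 (r = 0.99) and Ptchd4 (r = 0.92). For Sfrp5 they were Tpp1, a lysosomal peptidase (r = 0.97, and 0.90 without the 2 libraries farthest from the median), and Cd59a, an inhibitor of complement lysis (r = 0.96, and 0.93). For Cav1 they were Sycp3 and Syap1 (r = 0.98 each), and for Cav2 Ndufaf4 and Ywhab (r = 0.97 each). Npr3 was closest to Capn2 and Lgals1 (r = 0.94 each), Bmp3 to Impact and Mbnl2 (r = 0.92 each), and Sfrp1 to Fam134b (r = 0.93) and Dcaf7 (r = 0.91). With the 2 farthest libraries left out, r was 0.98 for Copg2 and 0.90 for Ptchd4, and 0.63 to 0.84 for the genes closest to Cav1, Cav2, Npr3, Bmp3 and Sfrp1.

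The genes that act beside these 7 were read from the same fits, and the lists below leave out the 7 members. Of all genes tested, 0% had an edgeR FDR under 0.05 in batch 1 and 6.40% against the batch 2 controls. An unadjusted p under 0.05 was found for 5.17% and 17.7%, and a DESeq2 call for 0.938% and 9.56%. Counts in the lists and among the cell type markers are to be read against these shares. Of 15 secreted Wnt modulators 6 passed the filter in batch 1, 2 higher and 4 lower in the WD group, with a median log2 fold change of -0.38 against 0.03 over all genes. None had an FDR under 0.05 in edgeR's test, and 0 had an unadjusted p under 0.05 or a DESeq2 call. Sfrp2, another secreted frizzled-related protein, was at 11.6 ± 8.01 CPM in the WD group (SD, n = 5) and 4.73 ± 6.47 CPM in the batch 1 controls (SD, n = 4), and Rspo3, which enhances Wnt signals, had a log2 fold change of -2.62 (SE 2.26, edgeR FDR 1.00). Of 19 Wnt ligands 2 passed the filter in batch 1. Wnt5a, a ligand of the noncanonical pathway that Sfrp5 can bind, was at 17.4 ± 8.67 CPM in the WD group (SD, n = 5), 15.3 ± 9.01 CPM in the batch 1 controls (SD, n = 4) and 20.9 ± 6.18 CPM in the batch 2 controls (SD, n = 5), which did not differ beyond the spread. The second ligand, Wnt9a, had a log2 fold change of -1.72 (SE 1.93, edgeR FDR 1.00). Of 24 Wnt receptors and targets 18 were tested in batch 1, 3 higher and 15 lower, with a median of -0.59, and 0 passed an unadjusted p of 0.05. Fzd4, a Wnt receptor, had a log2 fold change of 0.79 against the batch 1 controls (SE 0.38, edgeR FDR 1.00) and of -0.65 against the batch 2 controls (SE 0.22, FDR = 0.107), opposite in sign. Tcf7l1, a transcriptional repressor of the pathway, had -1.11 in batch 1 (SE 0.54, edgeR FDR 1.00). Against the batch 2 controls 0 genes of these Wnt lists had an edgeR FDR under 0.05, and DESeq2 called 1 gene. Without adjustment p was under 0.05 there for Fzd4 and for Wif1, a secreted Wnt inhibitor with an FDR of 0.0743 in edgeR's test. Wif1 was at 6.86 ± 2.90 CPM in the WD group (SD, n = 5) and 0.241 ± 0.540 CPM in the batch 2 controls (SD, n = 5). In the batch 1 controls it was at 9.71 ± 18.1 CPM (SD, n = 4). Its log2 fold change was 4.73 against the batch 2 controls (SE 1.48) and -0.45 against the batch 1 controls (SE 1.63), opposite in sign.

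In the BMP pathway 27 of 40 genes were tested in batch 1, 10 higher and 17 lower, with a median of -0.31, and 1 had an unadjusted p under 0.05. That gene was Inhba, an activin subunit, and its FDR in edgeR's test was 0.956. Inhba was at 0.41 ± 0.91 CPM in the WD group (SD, n = 5) and 12.1 ± 11.9 CPM in the batch 1 controls (SD, n = 4). In the batch 2 controls, on the normal diet, it was at 0.64 ± 0.88 CPM (SD, n = 5). Between the control groups, batch 2 against batch 1, its log2 fold change was -4.25 (SE 1.96, edgeR FDR 0.678). The fit with the batch 2 controls tested 28 genes, 10 higher and 18 lower, with an unadjusted p under 0.05 for 5 and DESeq2 calls for 3. An edgeR FDR under 0.05 was reached by 2, both lower, Acvr1c, a receptor of the activin branch abundant in adipocytes (log2 fold change -1.24, SE 0.23, edgeR FDR 0.00259), and Chrdl1, a BMP antagonist (-0.78, SE 0.21, FDR = 0.0330). In batch 1 the values were -0.67 for Acvr1c (SE 0.57) and 0.02 for Chrdl1 (SE 0.32). Between the control groups, batch 2 against batch 1, they were 0.55 for Acvr1c (SE 0.56) and 0.79 for Chrdl1 (SE 0.32, edgeR FDR 0.619). Of 16 genes of the natriuretic peptide system 14 were in the table and 7 were tested in batch 1, with 0 unadjusted p under 0.05 in edgeR's test and 0 DESeq2 calls in any of the 3 comparisons. Npr2, a signalling receptor for these peptides, was at 24.8 ± 9.88 CPM in the WD group (SD, n = 5) and 13.7 ± 14.5 CPM in the batch 1 controls (SD, n = 4), and Mme, the peptidase neprilysin, at 108 ± 46.0 and 79.3 ± 41.2 CPM. The difference in Mme was smaller than the SD of either group, and that in Npr2 was smaller than the SD of the controls only. Their log2 fold changes in batch 1 were 0.86 for Npr2 (SE 0.80) and 0.45 for Mme (SE 0.43). In the batch 2 controls Npr2 was at 38.6 ± 5.82 CPM and Mme at 98.8 ± 22.1 CPM (SD, n = 5). Against these controls the log2 fold change was -0.64 for Npr2 (SE 0.30), opposite in sign, and 0.12 for Mme (SE 0.28).

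Of 16 caveola proteins 12 were in the table, and 10 were tested in batch 1, 7 higher and 3 lower, with a median of 0.35 and 0 unadjusted p under 0.05. Ptrf, the gene of cavin-1, was at 3992 ± 1541 CPM in the WD group (SD, n = 5), 2006 ± 1124 CPM in the batch 1 controls (SD, n = 4) and 3169 ± 329 CPM in the batch 2 controls (SD, n = 5). Relative to the batch 2 controls 5 of the 10 were higher and 5 lower, with 1 FDR under 0.05, that of Ehd4, which rose (log2 fold change 1.32, SE 0.24, edgeR FDR 0.00272), an EH domain protein of membranes. Pacsin3, Prkcdbp and Ehd1, all lower there, had an unadjusted p under 0.05, with edgeR FDRs of 0.0980, 0.120 and 0.159. In batch 1 their log2 fold changes were -1.33 (SE 1.37), 0.21 (SE 0.45) and -0.05 (SE 0.35). The value of Ehd4 in batch 1 was 0.85 (SE 0.43, edgeR FDR 1.00). Of 29 imprinted genes 20 were tested in batch 1, 13 higher and 7 lower, with a median of 0.32, and 2 had an unadjusted p under 0.05, Peg3 and Peg10. Peg3 was at 116 ± 26.6 CPM in the WD group (SD, n = 5), 58.7 ± 27.9 CPM in the batch 1 controls (SD, n = 4) and 47.8 ± 13.5 CPM in the batch 2 controls (SD, n = 5). In batch 1 Peg3 had a log2 fold change of 1.00 (SE 0.39, edgeR FDR 0.777) and 1.28 against the batch 2 controls (SE 0.25, FDR = 0.00377). Peg10 was at 23.2 ± 8.65 CPM in the WD group (SD, n = 5), against 3.26 ± 3.46 CPM in the batch 1 controls (SD, n = 4), with a log2 fold change of 2.85 (SE 1.19, edgeR FDR 0.877). In the fit with the batch 2 controls 4 of 19 tested imprinted genes had an FDR under 0.05 (6.40% of all genes tested), with a median of 0.01 over the list. Peg3, Peg10 and Copg2 were higher. Grb10, an adaptor that restrains insulin signalling, was lower (log2 fold change -2.35, SE 0.41, edgeR FDR 0.00169) and had -0.96 in batch 1 (SE 1.23). Copg2 is no separate call from Mest, which leaves 3 genes.

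The cell type markers moved as follows beside these values. Of the 12 adipocyte markers 8 fell and 1, Lep, rose against the batch 2 controls at an FDR under 0.05 in edgeR's test, with a median log2 fold change of -0.88, and in batch 1 the median was 0.02 with 2 unadjusted p under 0.05, 0 FDR under 0.05 and 0 DESeq2 calls. Of the 8 macrophage markers 7 rose against the batch 2 controls (median 2.33), and in batch 1 all 8 were higher (median 1.61) with 4 unadjusted p under 0.05, 0 FDR under 0.05 in edgeR's test and 1 DESeq2 call. Of the 8 progenitor markers 2 rose against the batch 2 controls, Col1a1 and Lum, with a median of 0.27 over the list. In batch 1 the list median was 0.14, with 0.17 for Col1a1 (SE 0.47) and 1.06 for Lum (SE 0.52). Between the control groups, batch 2 against batch 1, Col1a1 was at -1.31 (SE 0.53) and Lum at -0.12 (SE 0.50). Endothelial, mesothelial, smooth muscle and pericyte, and red blood cell markers had 0 FDR under 0.05 in edgeR's test and 0 DESeq2 calls against either control group. An unadjusted p under 0.05 was found for 2 smooth muscle and pericyte markers in batch 1 and 1 against batch 2. In the same order the list medians were 0.20, -0.64, 0.45 and -0.35 against the batch 2 controls. Against the batch 1 controls they were -0.30, 0.57, -1.23 and -0.05. Of 12 epididymis markers 2 were tested in batch 1, both lower in the WD group, with a median of -10.49, and control replicate 1 held nearly all of their counts.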

How the data were processed

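QuantSeq 3′ libraries of 14 mice were analysed from the count table that the authors deposited, which holds raw counts per gene on mm10, and from log2 values that the authors deposited beside it, used as a check. The submitters' processing notes name Bowtie2, bedtools, edgeR and FastQC, and the use of strand in counting is not given in the sources used here. Of 23282 genes 5794 had no count. Library totals were 10278970 to 13712254 counts. Samples were grouped by the labels for diet and batch.

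Counts were TMM normalized, and log2(CPM + 1) computed from them differed from the deposited log2 values by at most 0.0155. Genes passing filterByExpr were tested with the quasi-likelihood test of edgeR 4.0.16 in R 4.3.3, with Benjamini-Hochberg adjustment over all genes tested and a threshold of 0.05 on the FDR. The standard error of a log2 fold change was its size divided by the square root of F. Single values were compared by two-sided exact permutation tests (scipy 1.17.1). Alternatives were DESeq2 1.42.0, limma 3.58.1 with voom, other scalings and filters, a replicate block, batch as a covariate and leaving out libraries. The fits were tested on simulated data.

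The 7 genes and all lists were chosen with earlier results of these data known. Genes named are the 7 members, the 2 genes most like each member, the 2 genes of each list with the smallest unadjusted p in batch 1, and overlapping genes. A gene named by this rule is not reported here. Wif1, Acvr1c, Chrdl1, Pacsin3, Prkcdbp, Ehd1, Grb10 and Col1a1 were named after their values were seen. Comparisons of levels relative to adipocyte markers with the batch 2 controls, and fits without both control replicates 1 and 4, were added after the data were seen. Gene positions were checked against GENCODE M21, where 22097 of 22230 shared symbols (99.4%) overlapped.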

Additional observations from a re-analysis of the deposited data

Results flagged for a closer look

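Among 42 groups of values examined, 3 held a library whose gap to the nearest of the others passed Dixon's 95% critical value, where about 1 in 20 groups, here 2.1, would be marked by chance. The groups are not independent, since the same genes and libraries enter on both scales, and both flags on Sfrp5 rest on the same counts. Sfrp5 in WD replicate 2 was at 5.08 on the log2(CPM + 1) scale, on 310 counts, against 9.04 to 9.67 in the other WD libraries. Relative to the adipocyte markers the same library was at -4.71 for Sfrp5, against -0.66 to -0.03. Cav2 relative to the adipocyte markers was at -0.12 in control replicate 4 of batch 1, against -1.58 to -1.37 in the other batch 1 controls.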

How the results depend on the processing

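Of the values recomputed under alternatives, 506 kept their direction and side of the threshold, 19 reversed, 15 passed and 10 lost the threshold, and the cause was not tested. In batch 1, 0 of the 7 genes had an FDR under 0.05 in any fit. Leaving out 1 library there gave 0.56 to 1.08 for Mest, 0.56 to 2.05 for Sfrp5, -0.0058 to 0.80 for Cav1 and -0.13 to 0.57 for Cav2, both negative without control replicate 1. Limma-voom gave 1.64 for Sfrp1. With all 14 libraries and no batch term Cav1 was -0.068 and Cav2 -0.28, and with all 9 controls Cav2 was -0.029 on the log2(CPM + 1) scale, where Mest (0.94, exact permutation p = 0.0110) and Npr3 (0.58, exact permutation p = 0.0390) passed 0.05. Against the batch 2 controls DESeq2 called 2 of the 7 genes, and leaving out 1 library gave 0 to 2. Mest ran there from 0.81 to 1.14, losing the threshold without WD replicates 1 or 5 or control replicates 5, 6 or 9, and Sfrp5 from 0.78 to 1.28, passing it without WD replicate 2. Batch 2 against batch 1 controls ran from -0.47 to 0.10 for Mest, -0.44 to 1.09 for Sfrp5, -0.42 to 0.91 for Bmp3 and -0.17 to 0.37 for Npr3, and without control replicates 1 and 4 together gave 0.55 for Sfrp5, 0.40 for Bmp3 and -0.047 for Npr3. Relative to the adipocyte markers, Sfrp1 ran from -1.50 to 1.04 in batch 1 and was 1.78 against the batch 2 controls, where Mest was 1.93 (exact permutation p = 0.00794). Without control replicate 4, Bmp3 (1.53), Cav1 (0.95) and Cav2 (0.66) passed on this scale (exact permutation p = 0.0357 each). That is the smallest p that the libraries left allow. Control replicate 4 was the highest batch 1 control for each of these genes on this scale. The share of all genes that separate without it was not counted.

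Same-numbered control and WD libraries of batch 1 had correlations of -0.01 to 0.08 over 4 pairs, and differently numbered ones -0.09 to 0.12. The labels give no pairing, and values this small from so few libraries cannot exclude one. With the replicate block, 0 of the 7 genes were called, and the log2 fold change was 0.78 for Mest, 1.00 for Sfrp5, 1.33 for Bmp3, 0.76 for Npr3, 0.63 for Cav1, 0.53 for Cav2 and -0.04 for Sfrp1. The median of all genes was 0.29 with the block and 0.42 with limma-voom, against 0.03 without either. Mest differed from its value without either by less than these shifts. Over all genes of batch 1, edgeR called 0, DESeq2 94 higher and 20 lower, edgeR without control replicate 4 42 and 6, without control replicates 1 and 4 77 and 31, on all 14 libraries without a batch term 55 and 12, and with batch as a covariate 1 and 0. Between the control groups edgeR called 0, DESeq2 51 higher and 60 lower, and edgeR without control replicate 1 1 and 0, without control replicate 4 0 and 2, and without both 11 and 17.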

Other observations

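Klf14, an imprinted transcription factor gene near Mest on chromosome 6, was at 15.5 ± 6.77 CPM in the WD group (SD, n = 5), 10.9 ± 11.5 CPM in the batch 1 controls (SD, n = 4) and 15.4 ± 5.26 CPM in the batch 2 controls (SD, n = 5), differences smaller than the spread between libraries.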
